A study of Mus musculus with 2 samples.

Results

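The miR-18, miR-19 and miR-25/92 families are small RNAs, most of which are transcribed together with the miR-17 family from a few short genomic clusters. Their members were taken here from the deposited miRNA names alone. An entry was included when any of its names had the stem miR-18a, miR-18b, miR-19a, miR-19b, miR-25, miR-32, miR-92a, miR-92b or miR-363, on either arm of the hairpin. This gave 15 of the 831 mouse miRNA entries. The RNA came from microvesicles (MVs), membrane particles that cells release into their medium. They were collected from the supernatant of mouse bone marrow mesenchymal stem cells (MSCs) in DMEM/F12 with fetal bovine serum. MSC-MVs came from cells cultured for 48 h without erythropoietin (EPO, the hormone that drives red blood cell formation), and EPO-MVs from cells cultured for 48 h with 100 IU/ml EPO. Because the same serum-containing medium was used for both, MVs of the serum itself could be present in both preparations, and their share was not measured here. The values used here hold 1 miRCURY LNA array per condition, so no test was run and no ratio carries an error, and what EPO did cannot be told apart from how the arrays differed.

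A miRNA is cut from a hairpin precursor that can yield a product from each arm (5p and 3p in its name). It finds its target mRNAs mainly through its seed, bases 2 to 8 counted from the 5′ end, so miRNAs with the same seed are grouped as a family. The miR-17-92 cluster is known as a growth-promoting polycistron that is often amplified in lymphoma. Among its members, miR-18a is known for repressing connective tissue growth factor and thrombospondin, and miR-92a for restraining blood vessel growth. miR-25 and its relatives repress the pro-apoptotic gene Bcl2l11 (Bim).

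Mature sequences were found by name in RefSeq (GRCm38.p6) for 13 of the 15 entries, the exceptions being miR-19a-5p and miR-363-5p. The sequences of the arms that carry the family seeds are shown first, because they define which entries belong to which family. Each runs 5′ to 3′ with the seed in capitals. The miR-18 family is represented by the following pair, which matches GCACCUU in an mRNA.
mmu-miR-18a-5p: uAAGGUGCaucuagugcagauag
mmu-miR-18b-5p: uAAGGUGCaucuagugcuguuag
The miR-19 family is represented by the next pair, which matches UUUGCAC.
mmu-miR-19a-3p: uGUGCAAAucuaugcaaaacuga
mmu-miR-19b-3p: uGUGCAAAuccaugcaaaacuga
The miR-25/92 family has 4 entries, which match GUGCAAU.
mmu-miR-25-3p: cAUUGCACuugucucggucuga
mmu-miR-32-5p: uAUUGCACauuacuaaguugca
mmu-miR-92a-3p: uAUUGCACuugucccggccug
mmu-miR-92b-3p: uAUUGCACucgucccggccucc

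With positions counted from 1 at the 5′ end, miR-18a-5p and miR-18b-5p are alike at 21 of 23 bases and differ by A18U and A20U. miR-19a-3p and miR-19b-3p are alike at 22 of 23 bases and differ only by U11C. Over the first 21 bases, miR-92a-3p differs from miR-92b-3p by U10C and G21C, and from miR-25-3p by U1C, C14U and C18U. The fourth relative, miR-32-5p, shares only 11 of 21 bases with miR-92a-3p. The family label therefore held for 8 of the 15 entries. No entry outside the 15 had one of these 3 seeds among the 680 entries of the array with a RefSeq sequence. The other 7 entries are 6 opposite arms of these hairpins and miR-363-5p, from Mir363. Of these, the 5 with a sequence each had a seed that no other sequenced entry shared, and they belong to the families by their gene and not by their seed. How far the capture sequences for miR-19a-3p and miR-19b-3p also bind each other's RNA was not tested.

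The genes of these miRNAs lie in 3 clusters and at 2 other sites of GRCm38.p6. The miR-17-92 cluster on chromosome 14 spans 836 bases and holds, in 5′ to 3′ order, Mir17, Mir18, Mir19a, Mir20a, Mir19b-1 and Mir92-1. The miR-106a-363 cluster on chromosome X spans 875 bases and holds Mir106a, Mir18b, Mir20b, Mir19b-2, Mir92-2 and Mir363. Mir106b, Mir93 and Mir25 lie within 498 bases of chromosome 5, inside Mcm7, which encodes a subunit of the replicative helicase. Mir32 lies inside Tmem245 on chromosome 4, and Mir92b lies on chromosome 3 with no protein-coding gene overlapping it. miR-19b-3p and miR-92a-3p are each encoded on both chromosome 14 and chromosome X with an identical mature sequence, so their values cannot be assigned to either cluster.

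The deposited value is a normalized intensity on a linear scale. On each array it is a whole multiple of the smallest value, called a step here. A normalized value of 1 is worth 447 steps on the MSC-MV array and 471 on the EPO-MV array. Intensities are given in steps, which are not corrected for the difference in scale between the arrays. The ratio is the normalized intensity of EPO-MVs divided by that of MSC-MVs. Ratios from 1.5 upwards, or from 0.667 downwards, count as past the threshold, after the fold change filter of the study's methods. The capture sequence for each miRNA binds with its own strength, so the steps of different miRNAs say how far a value stands above the smallest one and do not rank abundance. Over all entries, the median was 87 steps on the MSC-MV array and 97 on the EPO-MV array.

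Of the 15 entries, 5 passed 1.5-fold, 4 of them higher and 1 lower in EPO-MVs, and 10 did not pass. This is 33.3% of the members against 25.4% of all 831 entries. In the higher direction it is 26.7% against 17.8%, and in the lower direction 6.67% against 7.58%, and with 15 members each share is close to that of the array as a whole. The entry past the threshold as lower was miR-25-3p, and those past it as higher were miR-92a-2-5p, miR-92b-3p, miR-92b-5p and miR-19a-5p. The median log2 ratio was 0.025 for the members and 0.050 for all entries. By any amount, 7 of the 15 were lower in EPO-MVs, against 43.9% of all entries.

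**Figure D1:**
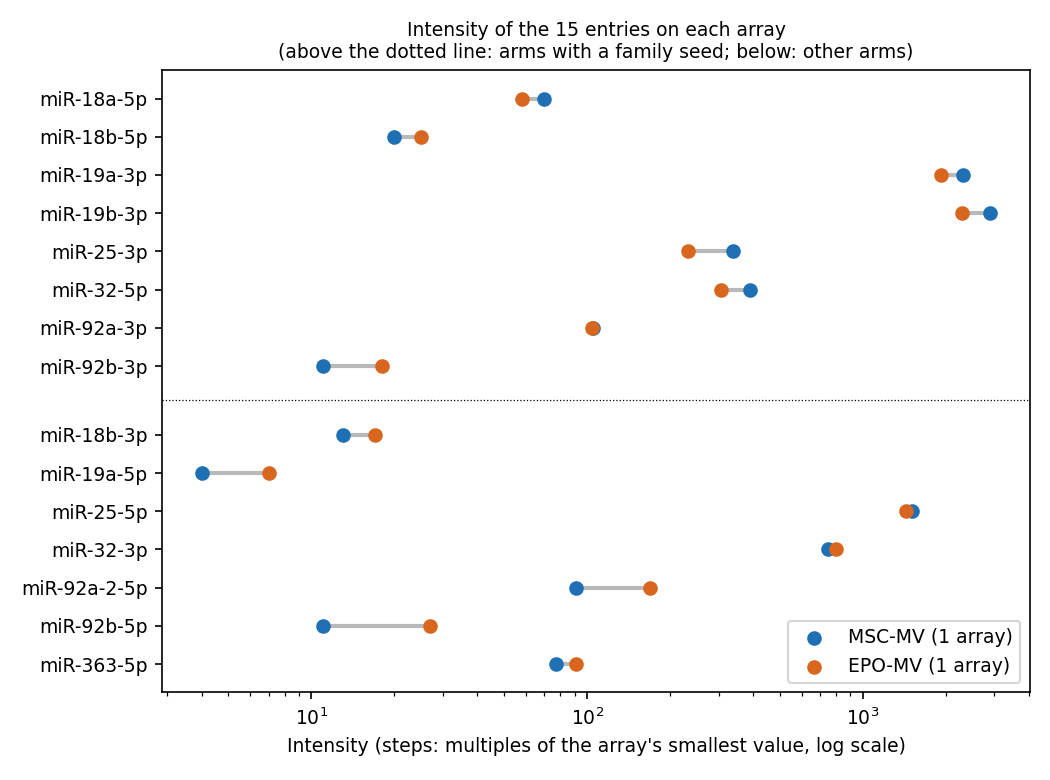
Intensity in steps (multiples of each array's smallest value, log axis) of each of the 15 entries, with 1 point for the MSC-MV array and 1 for the EPO-MV array. The 8 arms with a family seed are above the dotted line and the 7 other arms below it; miR-92b-5p (11 and 27 steps) and miR-92a-2-5p (91 and 169 steps) are among the pairs farthest apart, while the miR-92a-3p points (105 and 104 steps) overlie each other.

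The miR-19 family, whose miR-19b-3p has 2 genes, read well above the array median in both conditions. miR-19b-3p read 2899 steps in MSC-MVs against 2296 in EPO-MVs, or 6.49 against 4.87 after normalization, a ratio of 0.752. miR-19a-3p read 2308 against 1918 steps, or 5.16 against 4.07 after normalization, a ratio of 0.789. Both were lower in EPO-MVs and inside 1.5-fold, and both lay in the brightest of 4 nearly equal intensity groups, formed by ordering all entries on their mean log2 intensity. That group had 8.65% of its entries past 1.5-fold and 63.0% of them lower by any amount in EPO-MVs. The opposite arm miR-19a-5p read only 4 steps in MSC-MVs and 7 in EPO-MVs, with a ratio of 1.66. A single step more on the MSC-MV array would give a ratio of 1.33, and a single step less would give 2.21, so the values cannot place miR-19a-5p on either side of the threshold.

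Of the 4 entries of the miR-25/92 family, 3 were lower in EPO-MVs and miR-92b-3p was higher. Over all entries, 43.9% were lower. miR-25-3p, encoded inside Mcm7, read 338 steps in MSC-MVs against 232 in EPO-MVs, or 0.756 against 0.493 after normalization. Its ratio of 0.651 was the lowest of the 15 entries and the only one past the threshold as lower in EPO-MVs, a call that was lost with 3 of 6 re-scalings and normalizations (0.669 to 0.676). For miR-32-5p, which shares the seed but comes from Tmem245, the values were 388 and 305 steps and the ratio was 0.746. miR-92a-3p read 105 and 104 steps, or 0.235 against 0.221, with a ratio of 0.940, so its readings on the arrays were almost equal. miR-92b-3p was dim, at 11 steps in MSC-MVs and 18 in EPO-MVs, and its ratio of 1.55 was the only one of the 4 above 1. With 12 steps in MSC-MVs in place of 11, this ratio would be 1.42 and under the threshold. miR-25-3p, miR-32-5p and miR-92a-3p were in the third intensity group, where 9.66% of entries passed 1.5-fold in either direction, and miR-92b-3p was in the dimmest group.

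The miR-18 family was dim on both arrays. miR-18a-5p, from chromosome 14, read 70 steps in MSC-MVs against 58 in EPO-MVs, with a ratio of 0.786. miR-18b-5p, from chromosome X, read 20 against 25 steps with a ratio of 1.19. The pair thus lay on opposite sides of 1 with the deposited values, though miR-18b-5p was below 1 with quantile normalization (0.937) and lowess (0.954), and neither passed 1.5-fold. miR-18a-5p was in the second intensity group, where 22.1% of entries passed 1.5-fold, and miR-18b-5p in the dimmest, where 61.1% did. Its other arm, miR-18b-3p, read 13 against 17 steps with a ratio of 1.24.

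Among the arms without a family seed, miR-92a-2-5p and miR-92b-5p had the highest ratios of the 15 entries. miR-92a-2-5p read 91 steps in MSC-MVs against 169 in EPO-MVs, or 0.204 against 0.359 after normalization. Its ratio of 1.76 was the only one past 1.5-fold as higher among the 9 members with at least 60 steps on both arrays. The same limit left 463 entries in all, and 15 of these were past 1.5-fold as higher and 25 as lower. In the third intensity group, which holds miR-92a-2-5p, 11 of 207 entries were past 1.5-fold as higher and 9 as lower. Moving its MSC-MV value by 1 step gives a ratio of 1.74 or 1.78. miR-92b-5p read 11 against 27 steps with a ratio of 2.33, which would be 2.14 or 2.56 with 1 step more or less in MSC-MVs. Both arms of Mir92b were therefore higher in EPO-MVs by this measure. They lay in the dimmest group, where 46.2% of all entries were at least 1.5-fold higher. How many entries of that group reached a ratio of 2.33 was not counted. The other entries without a family seed were closer to 1. miR-25-5p read 1512 against 1433 steps with a ratio of 0.899, miR-32-3p read 748 against 802 steps with a ratio of 1.02, and miR-363-5p read 77 against 91 steps with a ratio of 1.12.

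**Figure D2:**
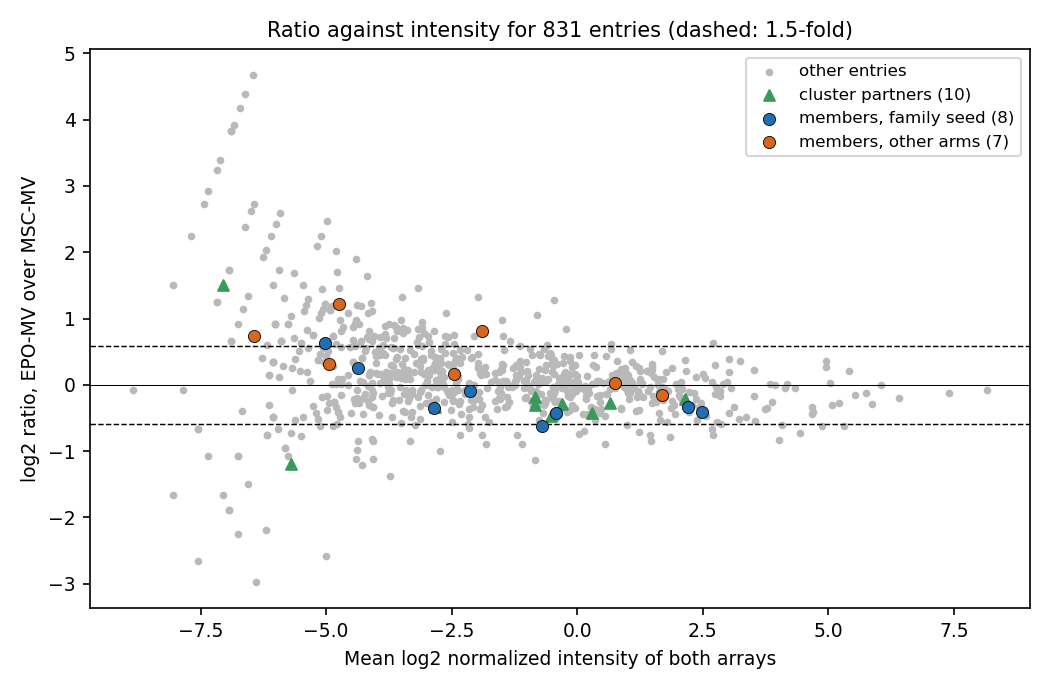
The log2 ratio of EPO-MV to MSC-MV against the mean log2 normalized intensity for all 831 entries, with the 8 family-seed arms, the 7 other arms and the 10 cluster partners marked; dashed lines are 1.5-fold. The spread of the grey points widens to the left, where miR-19a-5p, miR-92b-3p and miR-92b-5p lie, while miR-25-3p and miR-92a-2-5p pass a dashed line at brighter intensity.

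Dim and bright members were also set beside the dim and bright entries of the array. The 5 members in the dimmest intensity group were all above 1 with the deposited values, though not with lowess or quantile normalization, with ratios from 1.19 to 2.33, and 3 of them passed 1.5-fold. Of all entries in that group, 67.8% were above 1 and 61.1% passed 1.5-fold. The 4 members in the brightest group had ratios from 0.752 to 1.02, none of them past the threshold, where 8.65% of all entries passed. Nothing particular to the members is read from these counts. Over all entries the median log2 ratio was 0.49 in the dimmest group and -0.086 in the brightest. The part of intensity in the members' ratios was not tested.

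Both arms of 6 hairpins were listed, and in 6 of the 6 the arm without the family seed had the higher ratio. The hairpins of which an arm passed 1.5-fold and both mature arms were in RefSeq are printed 5′ to 3′ with the mature arms in capitals and the arm nearer the 5′ end first. Mir25 is at chr5:138165321-138165404 on the minus strand, Mir92b at chr3:89227116-89227198 on the minus strand and Mir92-2 at chrX:52741838-52741928 on the minus strand of GRCm38.p6.
Mir25: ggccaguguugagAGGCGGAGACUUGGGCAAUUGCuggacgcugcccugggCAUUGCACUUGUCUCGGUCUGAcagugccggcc
Mir92b: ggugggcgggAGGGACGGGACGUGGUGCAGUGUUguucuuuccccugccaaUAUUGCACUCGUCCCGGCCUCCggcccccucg
Mir92-2: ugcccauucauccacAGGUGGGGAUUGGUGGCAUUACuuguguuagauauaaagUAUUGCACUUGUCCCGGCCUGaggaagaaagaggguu

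The difference between the arms, as log2 ratio of the other arm minus that of the seed arm, was 0.47 for Mir25 and 0.45 for Mir32. For these hairpins the seed arm was in the third intensity group and the other arm in the brightest. It was 0.58 for Mir92b and 0.065 for Mir18b, with both arms in the dimmest group. It was 0.91 for Mir92-2, with both arms in the third group, although the miR-92a-3p reading can also include the product of Mir92-1. The 1.07 of Mir19a rests on the 7 and 4 steps of miR-19a-5p. The count was 5 of 6 with quantile normalization, with removal of the trend with intensity by lowess and with a pseudocount, and 3 of 3 among the hairpins with at least 60 steps for both arms on both arrays. This comparison was made after the values were seen, and with 1 array per condition no error can be attached to it. In the 4 hairpins of the miR-17 family with both arms listed (miR-17, miR-20a, miR-93 and miR-106b) it held only for miR-93. Other hairpins of the array have no family seed to sort their arms by, so their arms were ordered by intensity. The dimmer arm had the higher ratio in 151 of the 243 hairpins whose arms could be paired by name (62.1%), in 2 of the 6 here and in 5 of 6 hairpins of the stromal and hematopoietic marker miRNAs described later. Nothing particular to these families is read from the 6 of 6.

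**Figure D3:**
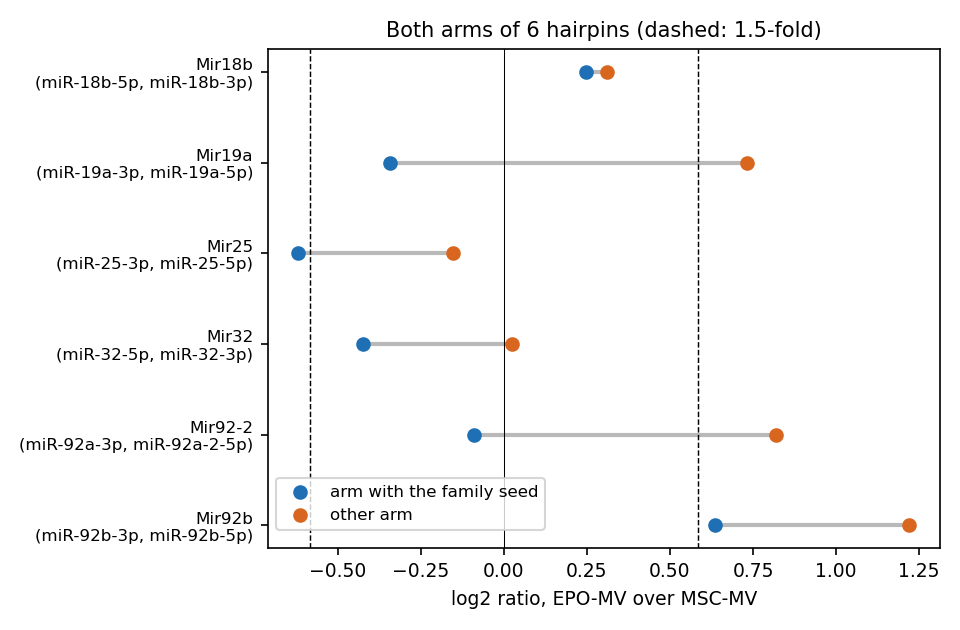
The log2 ratio of EPO-MV to MSC-MV for both arms of each of 6 hairpins; a grey line joins the arms and dashed lines mark 1.5-fold. In each hairpin the other arm lies to the right of the arm with the family seed, by 0.065 (Mir18b) to 1.07 (Mir19a).

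The miR-17 family members from the same clusters were used as cluster partners, with 10 entries for the stems miR-17, miR-20a, miR-20b, miR-93, miR-106a and miR-106b. These miRNAs repress cell cycle inhibitors such as Cdkn1a and are cut from the same primary transcripts. Of the 10, 1 was past 1.5-fold as higher and 1 as lower in EPO-MVs, against 17.8% and 7.58% of all entries. Both were in the dimmest group, where 61.1% of entries passed in either direction, miR-93-3p with 2 steps in MSC-MVs and 6 in EPO-MVs (ratio 2.85) and miR-20a-3p with 13 and 6 steps (ratio 0.438). The 6 arms with the miR-17 seed were all lower in EPO-MVs and all inside 1.5-fold. Their ratios were 0.721 for miR-93-5p, 0.746 for miR-106a-5p, 0.817 for miR-20a-5p, 0.826 for miR-17-5p, 0.862 for miR-106b-5p and 0.877 for miR-20b-5p.

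Taking the seed arms of the 3 clusters together, which are these 6 and miR-18a-5p, miR-18b-5p, miR-19a-3p, miR-19b-3p, miR-25-3p and miR-92a-3p, 11 of the 12 were lower in EPO-MVs, with a median log2 ratio of -0.32, against 43.9% of all entries and 63.0% of the brightest group. The exception was the dim miR-18b-5p. All but miR-25-3p stayed inside 1.5-fold. The count was 11 or 12 of 12 under each re-scaling and normalization tried and with the pseudocount, and 12 of 12 with lowess and with quantile normalization, where 49.6% and 48.5% of all entries were lower. Entries of 1 cluster share a transcript and several share nearly the same sequence, so they are not independent observations. Of the marker miRNAs described later, 7 of 8 stromal entries (median log2 ratio -0.44) and 4 of 5 hematopoietic entries were lower. The same held for 1 of 3 erythroid and 2 of 7 epithelial entries. Nothing particular to these clusters is read from the 11 of 12. Leaving out miR-19b-3p and miR-92a-3p, which have a gene in both larger clusters, ratios of the seed arms ran from 0.786 to 0.826 in miR-17-92, from 0.746 to 1.19 in miR-106a-363 and from 0.651 to 0.862 in miR-106b-25.

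**Figure D4:**
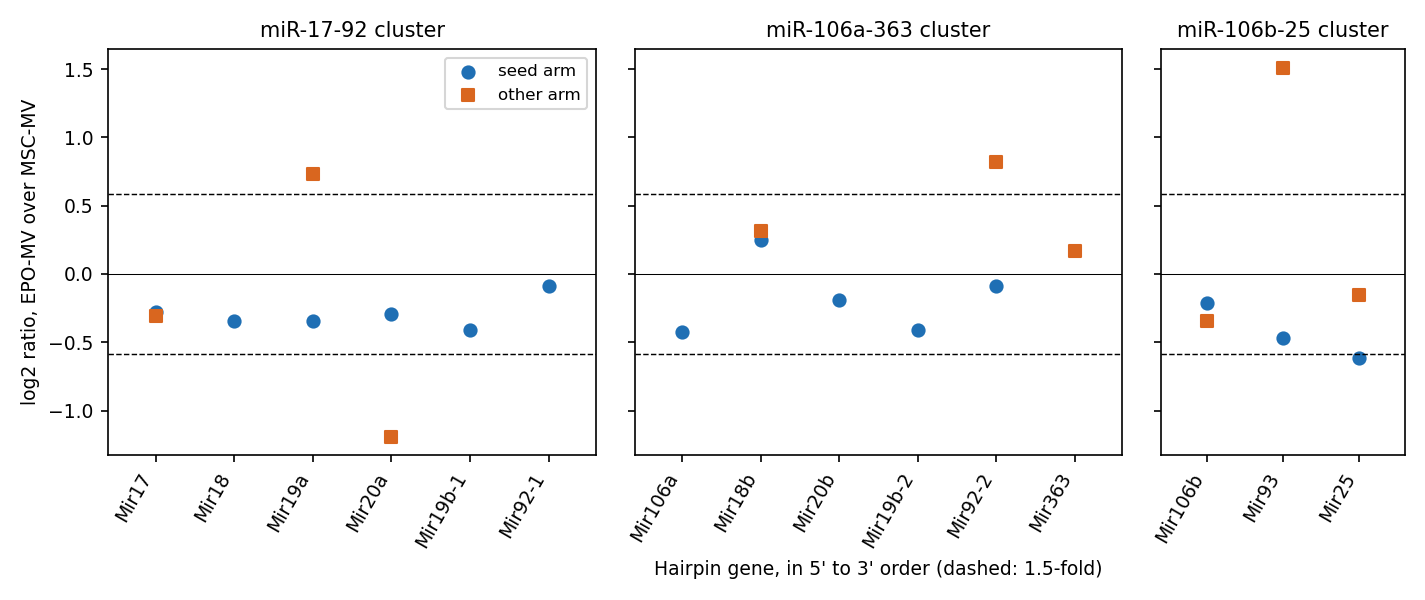
The log2 ratio of EPO-MV to MSC-MV for each listed arm, by hairpin gene in 5′ to 3′ order in the 3 clusters; circles are the arms with the miR-17, miR-18, miR-19 or miR-25/92 seed, squares the other arms, and dashed lines 1.5-fold. The circles lie below 0 except miR-18b-5p, and among the circles only miR-25-3p is below the lower dashed line, while the square of miR-20a-3p (-1.19) is also below it; miR-19b-3p and miR-92a-3p appear in both larger clusters because either could be their source.

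The settings moved the members unevenly. miR-92a-2-5p was at least 1.5-fold higher under all 6 re-scalings and normalizations, with ratios from 1.60 to 1.83. miR-92b-5p stayed above 1.5-fold except with the pseudocount, which gave 1.40. miR-25-3p passed the threshold as lower with quantile normalization (0.625), with lowess (0.650) and after re-centring on all entries, but not after re-centring on the brighter entries (0.669), scaling to the 75th percentile (0.676) or with the pseudocount (0.676). The ratios of miR-92b-3p and miR-19a-5p fell below 1.5 with quantile normalization, lowess and the pseudocount. The split of the members past 1.5-fold was 4 higher and 1 lower with the deposited values, 4 and 0 with scaling to the 75th percentile, and 2 and 1 with lowess and with quantile normalization.

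**Figure D5:**
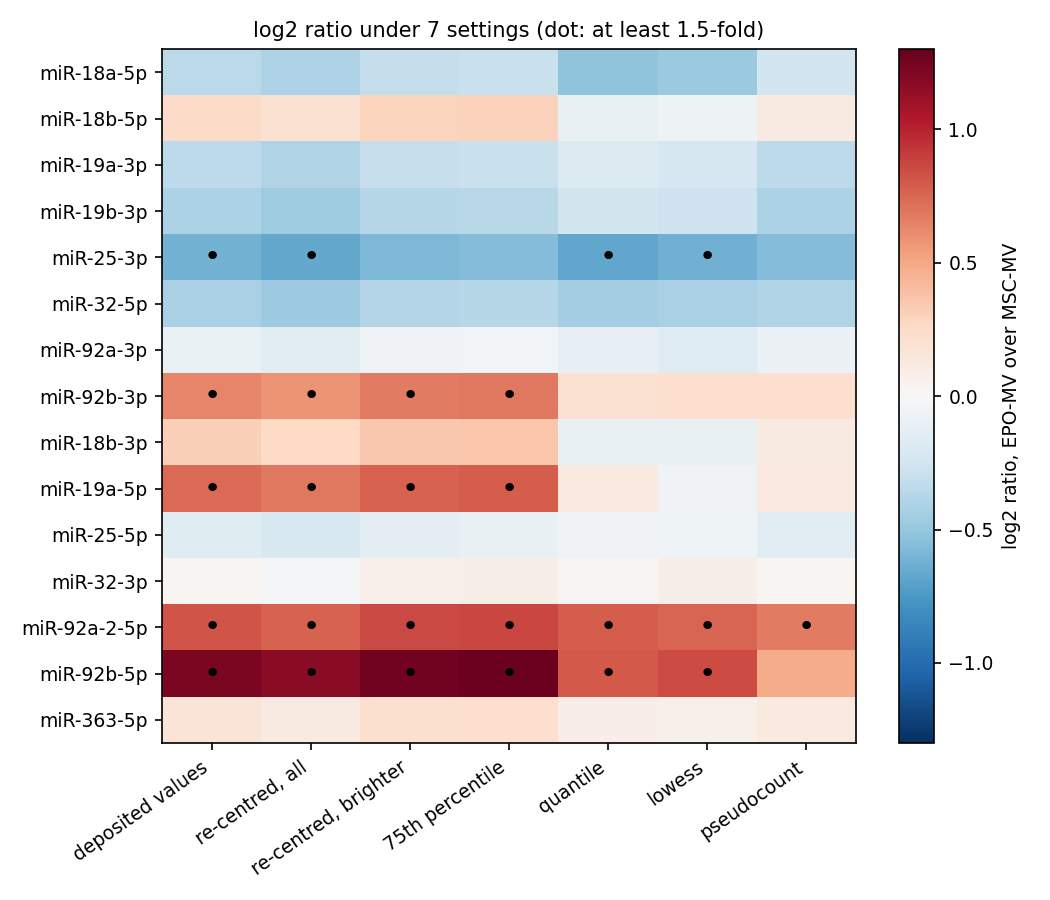
The log2 ratio of EPO-MV to MSC-MV for each of the 15 entries (rows) with the deposited values and under 6 alternatives (columns), as colour from blue (lower in EPO-MV) to red (higher); a dot marks at least 1.5-fold. Only miR-92a-2-5p carries a dot in every column.

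For 3 members the entries with the most similar ratio were found among the miRNAs within 0.5 of their mean log2 intensity. They were let-7b-5p (ratio 0.756) and miR-34b-5p (0.733) for mmu-miR-19b-3p, miR-322-5p (0.661) and miR-331-3p (0.694) for mmu-miR-25-3p, and miR-3470b (0.938) and let-7b-3p (0.937) for mmu-miR-92a-3p. Each log2 ratio differed from that of its member by 0.0033 to 0.091, and each likeness rests on a single ratio per entry.

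Marker miRNAs of the cell type and of possible contaminants were also read. Of the 8 entries of the stromal miRNAs miR-143, miR-145a, miR-199a and miR-214, which read 313 to 22016 steps in MSC-MVs and 282 to 15024 in EPO-MVs, 7 were lower in EPO-MVs, 1 of them past 1.5-fold. Their summed normalized intensity was 118.2 in MSC-MVs and 82.2 in EPO-MVs. The entry of miR-145a-5p is shared with miR-145b, and that of miR-199a-3p with miR-199b-3p. The 5 hematopoietic entries (miR-142, miR-150 and miR-223) read 114 to 21839 and 93 to 20714 steps, so miRNAs typical of blood cells were read on both arrays. Of these 5, 4 were lower in EPO-MVs, 1 of them past 1.5-fold (miR-223-3p, ratio 0.659), and their sum was 75.7 in MSC-MVs and 63.6 in EPO-MVs. Among the 3 erythroid entries (miR-144, miR-451a and miR-486, the last shared with miR-3107), 1 was past 1.5-fold as higher, and the sums were 4.53 and 4.28. The 7 epithelial entries (miR-200 family) read 2 to 68 steps in MSC-MVs and 2 to 74 in EPO-MVs, with sums of 0.374 and 0.516, and 4 were past 1.5-fold as higher. For comparison, 17.8% of all entries, 46.2% of the dimmest group and 39 of 208 entries of the second group were past 1.5-fold as higher. As lower, 7.58% of all entries were past it. Of the 4 epithelial entries past 1.5-fold, miR-141-3p and miR-200c-3p were in the dimmest group and miR-200b-3p and miR-200c-5p in the second. By any amount, 43.9% of all entries and 63.0% of the brightest group were lower in EPO-MVs. Over all entries the summed intensity was 2147 in MSC-MVs and 1957 in EPO-MVs. The summed intensity of the 15 members was 19.2 in MSC-MVs and 15.9 in EPO-MVs. Of this, miR-19a-3p and miR-19b-3p alone gave 11.6 and 8.95, so the members' sum mostly follows these bright entries. The part of other cells' RNA in the members' values was not tested, and fewer MVs of a kind cannot be told apart from less of a miRNA per MV.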

How the data were processed

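RNA of MVs from 2 conditions was labelled, hybridized to the miRCURY LNA Array and scanned, and the authors deposited 1 normalized intensity per miRNA and array. The authors normalized by the median, with a factor that left out miRNAs under an intensity of 30, and each deposited value is a mean over repeated spots. Which dye channel was read, any background correction and the genome build are not given in the sources used here. Each array is 1 sample, so there are no replicates, no p-values and no standard errors. The number of arrays limits the precision. Ratios were computed from the deposited intensities with no pseudocount and no filter. Steps were checked to be whole to within 0.0001. The members and lists were chosen with earlier results of these data known. All members were named, with the partners' seed arms, and for 3 members the 2 nearest entries outside the list. The 4 intensity groups were formed on the mean log2 value. Alternatives were folds of 2 and 1.2, entries above the median, at least 30 or 60 steps on both arrays, re-centring on all or brighter entries, the 75th percentile, quantile normalization, lowess (span 0.4, 3 iterations) and a pseudocount of 0.0573, the 25th percentile. Sequences and gene positions came from RefSeq (GRCm38.p6), matched by name. Python 3.11.15, pandas 2.3.3, numpy 2.4.6, statsmodels 0.14.6 and matplotlib 3.10.9 were used.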

Additional observations from a re-analysis of the deposited data

How the results depend on the processing

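The number of members past 1.5-fold, 5 with the deposited values, was 1 at 2-fold (10.6% of all entries passed) and 10 at 1.2-fold, 5 in each direction (55.4%). It was 2 among entries above the median intensity and with at least 30 or 60 steps on both arrays, where 8, 10 and 9 members were left and 9.16%, 10.8% and 8.64% of all entries passed. It was 3 with quantile normalization (22.9%) and with lowess (22.6%), and 1 with the pseudocount (6.5%). The number of cluster partners, 2 with the deposited values, was 8 at 1.2-fold, 0 under each of the 3 filters and with the pseudocount, and 1 with quantile normalization and with lowess, against the same shares of all entries. The median log2 ratio of the members, 0.025, lay close to 0 and turned negative with entries above the median and with at least 30 steps (-0.25), at least 60 steps (-0.15), re-centring on all entries (-0.025), quantile normalization (-0.095) and lowess (-0.068). The ratio of miR-19a-5p was 0.971 with lowess. Filters leave fewer members and a pseudocount shrinks dim ratios by construction; other causes were not tested. Of 90 member ratios under 6 re-scalings and normalizations, 80 kept their side of the threshold and 10 moved inside it. Of the 90, 6 crossed 1, namely miR-18b-3p and miR-18b-5p with quantile normalization and lowess, miR-32-3p after re-centring on all entries and miR-19a-5p with lowess. No paired analysis was possible because neither group has a second array. Background was not measured, so no entry can be called above it.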
